A study of Mus musculus with 4 samples.

Results

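A set of 10 genes whose expression marks blood vessel endothelium were followed in RNA sequencing of whole mouse testes: Pecam1, Cdh5, Tek, Tie1, Kdr, Flt1, Emcn, Robo4, Plvap and Egfl7. They were taken by gene name from a deposited table of 53465 genes, and all 10 were found there and passed the filter on low counts. The series holds 4 testis libraries from male mice at postnatal day 18 on a mixed C57BL/6-ICR background, 2 labelled wild type and 2 labelled Sympk cKO, a conditional knockout made with Stra8-Cre. Stra8-Cre is active in male germ cells, so the endothelium itself is not the cell in which Sympk, the gene of the mRNA 3' end processing scaffold symplekin, is meant to be deleted. The labels do not give the floxed alleles or how many animals a library holds, or whether each library is an animal of its own. The p-values therefore rest on the spread among these 4 samples alone, and that spread may be technical.

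Endothelial cells line blood vessels. In the testis the vessels run in the interstitial tissue between the seminiferous tubules, beside Leydig cells and macrophages, and do not enter the tubules. Vascular endothelial growth factor (VEGF) acts on the receptor kinases of Kdr and Flt1, angiopoietins act on the kinase of Tek with Tie1 as its partner, and cell contacts between endothelial cells are held by the products of Cdh5 and Pecam1.

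All 10 genes were higher in the cKO testes, at 1.57-fold (Egfl7) to 3.16-fold (Robo4) the wild-type level. Levels are counts relative to the library total (CPM) after scaling with edgeR's TMM factors, written TMM CPM. The summed level of the 10 genes came to 105 and 93.5 TMM CPM in wild type and to 223 and 220.2 TMM CPM in cKO. All 10 passed edgeR's quasi-likelihood test (adjusted p under 0.05, Benjamini-Hochberg over the 21822 genes tested), beside 29.2% of all genes called higher and 34.3% called lower. For all 10, both cKO libraries lay above both wild-type libraries, as they did for 40.9% of all genes tested. The median log2 fold change of the 10 genes was 0.97, against -0.02 over all genes tested, with a range from 0.65 to 1.66. These directions hold on the TMM scale: with libraries scaled to Sertoli cell markers the median of the 10 genes was -0.35. In whole tissue, more endothelial cells and more RNA per endothelial cell cannot be told apart, and neither can be told from a smaller share of other RNA.

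**Figure D1:**
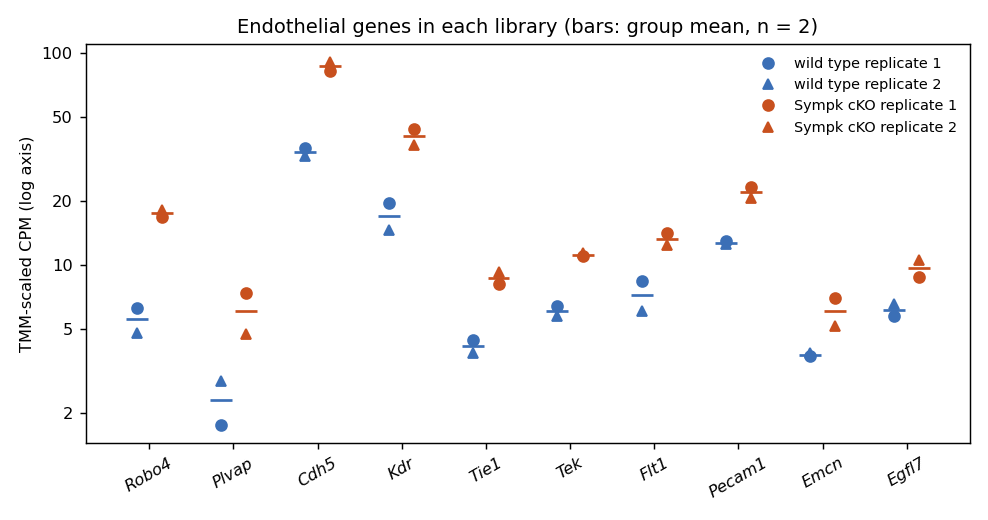
TMM-scaled CPM (log axis) of each of the 10 endothelial genes in the 2 wild-type and 2 cKO libraries, with a bar at each group mean (n = 2) and genes ordered by fold change. In every gene both cKO libraries lie above both wild-type libraries, with the narrowest gap for Emcn, 1.34-fold from the higher wild-type to the lower cKO library, and the widest for Robo4, 2.68-fold.

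Other cell types of the testis moved in the same comparison, and the scale moved with them. All 7 spermatocyte markers were lower (list median log2 fold change -4.00), while all 10 Sertoli cell markers were higher (median 1.32), a rise above that of 7 of the 10 endothelial genes. Macrophage markers were higher in 5 of 6 cases, with summed levels of 133 and 133 TMM CPM in wild type and 281 and 333 in cKO. Blood cell and platelet markers were higher in 6 of 10 cases, from 102 and 146 to 300 and 297 TMM CPM, and none of them was at 0. Skeletal muscle markers, of which 2 of 6 were called higher, summed to 14.1 and 264 TMM CPM in wild type against 991 and 592 TMM CPM in cKO. Wild-type replicate 1, with the lowest muscle level, had the higher summed level of the 10 endothelial genes in wild type. These 2 wild-type libraries cannot decide what part muscle RNA has. Muscle levels were higher in both cKO libraries than in both wild-type ones, so that difference cannot be told apart from genotype. The part that RNA of these cells has in the results was not tested. Library totals ran from 32730868 to 41584389 counts, and the 10 genes held 67 to 3530 counts each. Mitochondrially encoded genes took 4.01% to 4.93% of wild-type and 8.81% to 10.2% of cKO counts. Sympk itself, counted over the whole gene, was at 225 and 192 TMM CPM in wild type and 171 and 173 TMM CPM in cKO and did not pass the test (adjusted p = 0.132).

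The stretches before the transcription starts are shown for 5 of the genes, which between them hold each of the GGAA-related words searched for here and include both VEGF receptors. Transcription factors of the ETS family, several of which act in endothelial cells, bind sites built around GGAA. RefSeq sequences (GRCm38.p6) were matched by symbol for 7 of the 10 genes, with 3 starts for Egfl7, and none was matched for Pecam1, Cdh5 and Plvap. Each stretch lies within the 250 bases before a RefSeq start and outside the gene's GENCODE M21 exons, runs 5′ to 3′ on the gene's strand, and has 3 words in capitals wherever they occur on either strand. The first word is AGGAAG. The second word, which is found in Kdr, is CCGGAA. The third word, which lacks the last letter of the core, is AACAGGA.
Kdr (GRCm38.p6, chr5:75978459-75978705, minus strand): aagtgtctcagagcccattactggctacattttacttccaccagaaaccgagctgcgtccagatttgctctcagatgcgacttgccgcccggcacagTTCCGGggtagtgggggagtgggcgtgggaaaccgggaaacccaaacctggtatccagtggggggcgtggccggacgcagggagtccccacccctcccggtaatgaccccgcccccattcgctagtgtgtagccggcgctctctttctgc
Flt1 (GRCm38.p6, chr5:147726012-147726261, minus strand): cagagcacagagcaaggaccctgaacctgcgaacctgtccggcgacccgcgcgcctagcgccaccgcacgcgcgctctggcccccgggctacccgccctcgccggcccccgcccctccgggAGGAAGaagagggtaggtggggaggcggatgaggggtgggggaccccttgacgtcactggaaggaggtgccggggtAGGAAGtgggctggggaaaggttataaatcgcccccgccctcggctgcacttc
Tek (GRCm38.p6, chr4:94739039-94739288, plus strand): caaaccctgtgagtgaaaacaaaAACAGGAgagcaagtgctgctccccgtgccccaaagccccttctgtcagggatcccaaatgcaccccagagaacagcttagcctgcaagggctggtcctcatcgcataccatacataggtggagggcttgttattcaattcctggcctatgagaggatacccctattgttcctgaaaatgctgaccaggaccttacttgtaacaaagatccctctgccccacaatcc
Emcn (GRCm38.p6, chr3:137340828-137341066, plus strand): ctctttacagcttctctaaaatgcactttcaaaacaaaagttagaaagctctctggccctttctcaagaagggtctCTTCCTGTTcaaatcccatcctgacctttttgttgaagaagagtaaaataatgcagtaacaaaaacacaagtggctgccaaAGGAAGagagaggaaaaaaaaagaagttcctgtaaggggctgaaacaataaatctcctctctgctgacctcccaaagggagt
Egfl7 (GRCm38.p6, chr2:26580833-26581055, plus strand, first of its RefSeq starts): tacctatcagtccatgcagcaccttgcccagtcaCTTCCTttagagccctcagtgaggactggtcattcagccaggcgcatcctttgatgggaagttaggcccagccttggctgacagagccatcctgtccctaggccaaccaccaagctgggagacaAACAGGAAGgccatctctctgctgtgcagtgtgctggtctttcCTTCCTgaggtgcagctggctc

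Within the full 250 bases, AACAGGA or its reverse complement was present in 4 of the 9 promoters of the 7 genes (those of Egfl7, Emcn and Tek), against 5.27% of 32841 mouse promoters of the same length. In Egfl7 and Emcn it overlapped AGGAAG in the longer word AACAGGAAG, which 0.868% of promoters hold and which was searched for after these sequences had been seen. AGGAAG was present in 6 of the 9 (29.5% of all promoters), from 5 genes. CCGGAA was present in 1 of the 9, that of Kdr (12% of all), TATAAA in 1, that of Flt1 (12.4% of all), and GGGCGG in 3, of Egfl7, Flt1 and Kdr (32.7% of all). A match describes these letters only and shows no bound factor.

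The genes of both VEGF receptors rose. Kdr, which encodes the main signalling receptor for VEGF in endothelium (chromosome 5, 75932827 to 75978458, minus strand), was at 19.6 and 14.6 TMM CPM in wild type and 43.9 and 37.0 TMM CPM in cKO. Neither cKO library came near the wild-type range, and the log2 fold change was 1.25 (SE 0.201, adjusted p = 0.00244). Flt1, which encodes a receptor that binds VEGF tightly and signals weakly (chromosome 5, 147561604 to 147726011, minus strand), was at 8.40 and 6.11 TMM CPM in wild type against 14.2 and 12.4 TMM CPM in cKO. Its groups did not overlap either, with a log2 fold change of 0.87 (SE 0.225, adjusted p = 0.0152). Leaving out cKO replicate 1 left Flt1 short of the threshold (0.78, adjusted p = 0.0648). By the authors' FPKM values, which divide counts by gene length and library total, Kdr stood at 3.48 and 3.56 times Flt1 in wild type and at 4.62 and 4.46 times in cKO. With 2 libraries against 2, the exact two-sided permutation test of such a ratio cannot go below p = 0.333.

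The angiopoietin receptor Tek and its partner Tie1 both rose. Tek (chromosome 4, 94739289 to 94874976, plus strand) went from 6.39 and 5.77 to 11.1 and 11.4 TMM CPM, with replicates close together in both groups (log2 fold change 0.88, SE 0.187, adjusted p = 0.00716). Tie1, an orphan receptor kinase that modulates Tek signalling (chromosome 4, 118471191 to 118490061, minus strand), went from 4.44 and 3.86 to 8.13 and 9.26 TMM CPM. Its log2 fold change was 1.07 (SE 0.212, adjusted p = 0.00552). The FPKM ratio of Tie1 to Tek was 0.868 and 0.835 in wild type and 0.918 and 1.02 in cKO, without overlap.

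Robo4 had the highest fold change of the 10 genes as reported, though Plvap exceeded it with wild-type replicate 2 left out (1.75 against 1.46) or cKO replicate 2 left out (1.69 against 1.61). Robo4 encodes an endothelial member of the roundabout receptors, which stabilises vessels (chromosome 9, 37401897 to 37415115, plus strand). Its levels were 6.32 and 4.81 TMM CPM in wild type and 16.9 and 18.3 TMM CPM in cKO, so that the lower cKO library was well above the higher wild-type one. The log2 fold change was 1.66 (SE 0.208, adjusted p = 9.29e-04), and the values with a single library left out ran from 1.46 to 1.87. Its ratio to Pecam1 by FPKM rose from 0.483 and 0.379 to 0.715 and 0.877.

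The genes of endothelial cell contacts differed in how far they rose. Cdh5, which encodes VE-cadherin of the adherens junctions (chromosome 8, 104101625 to 104144511, plus strand), was at 35.9 and 32.6 TMM CPM in wild type and 82.5 and 90.7 TMM CPM in cKO. The lower cKO library exceeded the higher wild-type one by far, with a log2 fold change of 1.34 (SE 0.14, adjusted p = 4.75e-04). Pecam1, which encodes the contact protein CD31 that platelets and white blood cells also carry (chromosome 11, 106654217 to 106750628, minus strand), was at 13.0 and 12.6 against 23.5 and 20.7 TMM CPM. The log2 fold change of Pecam1 was 0.79 (SE 0.163, adjusted p = 0.0065), and the FPKM ratio of Cdh5 to Pecam1 went from 5.71 and 5.35 to 7.26 and 9.08. Among the blood markers, the platelet gene Itga2b, at 1.82 and 2.11 against 2.31 and 2.41 TMM CPM, did not pass the test (adjusted p = 0.406). The platelet gene Pf4 rose from 1.69 and 2.84 to 6.82 and 6.66 TMM CPM (log2 fold change 1.57, adjusted p = 0.00476), and the leukocyte gene Ptprc rose by 1.46 on the log2 scale (adjusted p = 0.00131).

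**Figure D2:**
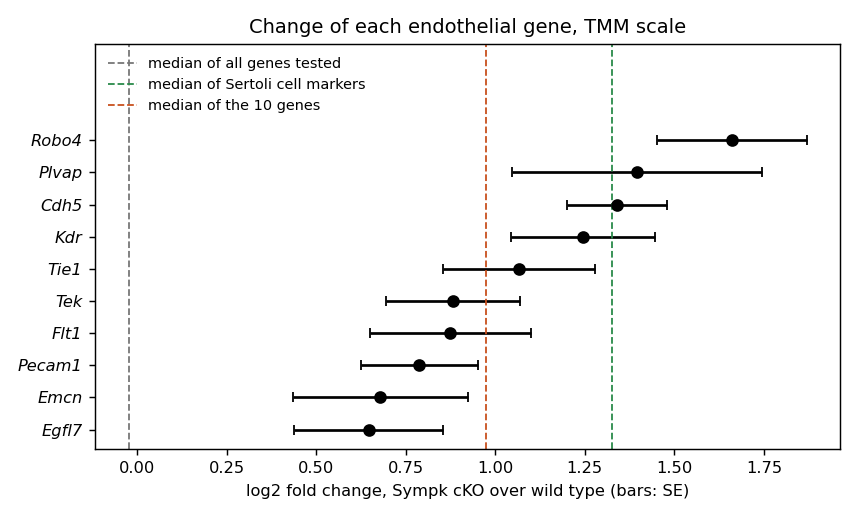
Log2 fold change of each endothelial gene, cKO over wild type, on the TMM scale with its SE as a bar, beside the medians of all genes tested (-0.02), of the 10 genes (0.97) and of the Sertoli cell markers (1.32). All 10 genes lie above the median of all genes, and Robo4, Plvap and Cdh5 lie above the Sertoli median.

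The surface genes Plvap and Emcn were both higher in cKO, and Plvap varied between libraries in both groups. Plvap encodes a protein of the diaphragms in fenestrated capillaries (chromosome 8, 71497765 to 71511752, minus strand) and was at 1.77 and 2.84 TMM CPM in wild type and 7.41 and 4.71 TMM CPM in cKO. It had the fewest counts of the 10 genes in wild type, 67 and 101, and, as a ratio of the higher to the lower library, the widest spread in each group. Its groups did not overlap, and the log2 fold change was 1.40 (SE 0.349, adjusted p = 0.0136). It missed the threshold with wild-type replicate 1 left out (1.09, adjusted p = 0.0578). The same held with cKO replicate 1 left out (1.04, adjusted p = 0.0605). Emcn, which encodes the sialomucin endomucin of capillary and venous endothelium (chromosome 3, 137341067 to 137432185, plus strand), was at 3.73 and 3.86 TMM CPM in wild type and 6.99 and 5.15 TMM CPM in cKO, again without overlap. The change of 0.68 on the log2 scale (SE 0.243) passed the threshold narrowly (adjusted p = 0.0482) and was called in 4 of 12 alternatives, leaving out the Sertoli scale. Without cKO replicate 1 the Emcn value was 0.45 (adjusted p = 0.275), and without wild-type replicate 1 or 2 it was 0.65 (adjusted p = 0.113) or 0.68 (adjusted p = 0.102). DESeq2, limma-voom, RLE size factors, no filter and the replicate block also ended the Emcn call, with adjusted p from 0.0535 to 0.0856.

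Egfl7 had the lowest fold change of the 10 genes as reported, close to that of Emcn. With cKO replicate 1 left out Emcn was lowest (0.45), and with wild-type replicate 2 left out Flt1 was (0.64). Egfl7 encodes a protein that endothelial cells secrete into the matrix, and it hosts miR-126, a microRNA of endothelial cells (chromosome 2, 26580014 to 26593120, plus strand). Its levels were 5.79 and 6.56 TMM CPM in wild type and 8.76 and 10.6 TMM CPM in cKO, which do not overlap. The log2 fold change of 0.65 (SE 0.207, adjusted p = 0.0335) was not called with any single library left out, with values from 0.51 to 0.78 and adjusted p from 0.0508 to 0.173, nor with the replicate block (0.64, adjusted p = 0.0545). The end of Egfl7 shares 64 exon bases with Agpat2 on the opposite strand, which held 94 and 92 counts in wild type and 259 and 232 in cKO. The protocol names no strand-marking step, so reads from the shared bases cannot be told apart. The microRNA is shown because it is read from the same locus; its seed, bases 2 to 8, is in capitals (RefSeq, GRCm38.p6, chr2:26591402-26591423, plus strand).
miR-126a-3p: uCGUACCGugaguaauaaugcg
The table's row for Mir126a held 1 and 0 counts in wild type and 1 and 1 in cKO. Libraries of fragmented mRNA do not measure mature microRNAs, so the change of Egfl7 gives no level of miR-126.

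Levels were compared between the genes per length, by the authors' FPKM values within each library. Cdh5 was highest of the 10 in every library, at 7.52 and 7.06 FPKM in wild type and 19.8 and 23.3 FPKM in cKO. It held 49.1% and 47.9% of the summed FPKM of the 10 genes in wild type and 50.3% and 55.7% in cKO. Kdr came second in every library, from 1.42 to 1.85 FPKM in wild type and 4.28 to 4.76 FPKM in cKO. In wild type, Pecam1 (1.32 and 1.32 FPKM) and Plvap (0.811 and 1.35) overlapped each other. So did Tek (0.770 and 0.718 FPKM) with Egfl7 (0.684 and 0.801), Tie1 (0.668 and 0.5999) with Robo4 (0.636 and 0.501), and Flt1 (0.531 and 0.399) with Emcn (0.519 and 0.555). Robo4 moved from ranks 8 and 9 in wild type to rank 5 in both cKO libraries, and Egfl7 from ranks 6 and 5 to rank 8 in both. The length behind the FPKM values equalled that of the gene's exons in GENCODE M21 for Plvap. It was longer for the other genes, by a ratio of up to 2.15 for Egfl7. With M21 lengths, chosen as an alternative after seeing this, Cdh5 stayed first with 41.4% to 49.1% of the sum. Kdr ranked second in 3 libraries and 4 in wild-type replicate 2, behind Pecam1 and Egfl7, and Egfl7 ranked 4 and 3 in wild type and 6 and 5 in cKO. A gene's own ratio between libraries does not depend on its length.

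**Figure D3:**
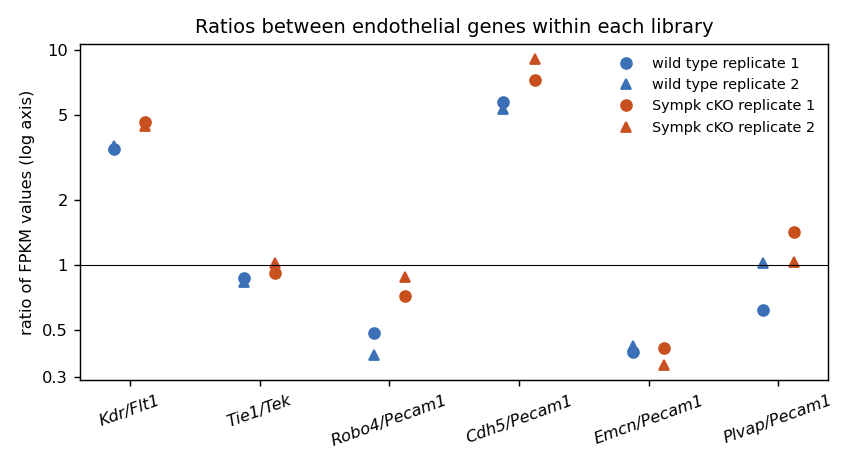
Ratios of FPKM values (log axis) between pairs of endothelial genes within each library. Robo4 to Pecam1 lies at 0.379 to 0.483 in wild type and 0.715 to 0.877 in cKO, while Emcn to Pecam1 overlaps between genotypes (0.394 and 0.421 against 0.409 and 0.342).

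The ligands and partner receptors of these pathways were mostly higher too. Of 18 tested vascular ligand genes, 13 rose and none fell; with cKO replicate 1 left out 9 rose and Pgf was called lower (-1.21, adjusted p = 0.0455). The list's median was 1.10, against -0.02 over all genes tested, and -0.23 on the Sertoli scale. Another 5 did not pass, among them Vegfb (0.01) and the placental growth factor gene Pgf (-0.74). The largest rises were those of the chemokine gene Cxcl12 (13.0 and 21.3 to 46.3 and 81.9 TMM CPM, log2 fold change 1.90), the VEGF receptor ligand gene Vegfd (12.4 and 20.03 to 63.3 and 52.5, 1.84) and the apelin gene Apln (6.61 and 7.03 to 17.2 and 21.1, 1.49). Vegfa, the ligand of both Kdr and Flt1 and here named for that role, rose from 8.56 and 6.61 to 13.9 and 14.4 TMM CPM (0.90, adjusted p = 0.00925). Its groups did not overlap. The 3 angiopoietin genes rose by 1.47 (Angpt1), 1.001 (Angpt2) and 1.13 (Angpt4), and Angpt2 missed the threshold with cKO replicate 1 left out (0.89, adjusted p = 0.0565). Among the Slit genes, whose products act on roundabout receptors, Slit3 rose by 1.49, while Slit1 (0.66) and Slit2 (0.43) did not pass.

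Of 15 partner receptors, 13 rose and none fell, with a median of 1.41 (0.07 on the Sertoli scale). Robo2 rose from 2.70 and 2.73 to 13.6 and 7.75 TMM CPM (log2 fold change 1.98), the integrin gene Itgav from 23.5 and 19.4 to 62.0 and 106 TMM CPM (1.97) and Acvrl1, an endothelial receptor of the TGF-beta family, from 14.1 and 6.81 to 51.0 and 25.7 TMM CPM (1.87). Acvrl1 missed the threshold with wild-type replicate 2 left out (1.42, adjusted p = 0.0531). Robo1 rose by 1.06, so 3 roundabout genes were higher, with Robo4 between the other 2. The neuropilin co-receptor genes Nrp1 and Nrp2 rose by 1.44 and 1.59, and the netrin receptor gene Unc5b (0.08) and Cxcr4 (0.56) did not pass. The median of the receptors lay near that of the Sertoli cell markers (1.32). Whole tissue does not show which cells held the RNA of these receptors or of the ligands.

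Other endothelial genes moved the same way, and less far at the median. Of 25 such genes, 19 rose and none fell, and the median over the 25 was 0.76 (-0.57 on the Sertoli scale). S1pr1, a lipid receptor gene of vessel stability, rose from 4.33 and 5.80 to 13.7 and 14.8 TMM CPM (1.49), Ushbp1 from 2.83 and 1.66 to 5.54 and 5.94 (1.35) and Eng, which encodes the co-receptor endoglin, from 25.8 and 23.9 to 59.9 and 56.0 (1.22). The 6 that did not pass were Esm1 (-0.22), Nos3 (0.35), Myct1 (0.38), Tm4sf1 (0.54), Gpihbp1 (0.69) and Icam2 (0.76), named after their values were seen. The median over the 25 was 0.73 without cKO replicate 1 and 0.75 without cKO replicate 2. Fewer of the 25, and fewer of all genes, were called higher in both. The mean log2 level of the 10 genes exceeded that of the 25 by 0.41 and 0.42 in wild type and 0.74 and 0.65 in cKO.

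Endothelial transcription factor genes did not all rise. Of 24 tested, 17 rose, 3 fell and 4 did not pass (median 0.87, and -0.45 on the Sertoli scale), and Etv2 was not tested, with 0 counts in both wild-type libraries. Mef2c rose from 9.65 and 7.51 to 32.0 and 30.4 TMM CPM (log2 fold change 1.86) and Lyl1, at lower level, from 1.74 and 1.46 to 3.95 and 5.92 (1.62). Ets1 had the largest value, 1.98, but stood at 15.3 and 48.4 TMM CPM in cKO against 8.80 and 7.32 in wild type. Without cKO replicate 2 the Ets1 value was 0.93 (adjusted p = 0.0241), and with wild-type replicate 1 or 2 left out its adjusted p was 0.0754 or 0.103. The ETS genes Erg and Fli1, regulators of endothelial identity and named here for that role, rose by 0.86 and 0.99. Hey1, a Notch target gene of arteries, fell from 9.83 and 7.09 to 3.06 and 3.48 TMM CPM (-1.37, adjusted p = 0.00395). Sox17, also an arterial regulator, fell from 8.56 and 7.03 to 3.95 and 3.89 TMM CPM (-0.99, adjusted p = 0.00801). The third, Sox7, named after its values were seen, fell by 0.80 (adjusted p = 0.0436) and missed the threshold with DESeq2, library totals, no filter, the replicate block and 3 of the 4 libraries left out in turn (adjusted p from 0.052 to 0.143). Its relative Sox18 rose by 0.77, and by 0.71 with cKO replicate 1 left out (adjusted p = 0.0878). Other Notch pathway genes of the lists here did not fall with Hey1. Dll4 (0.94), Jag1 (0.76), Notch1 (1.51), Notch3 (1.22), Notch4 (1.32) and Heyl (0.66) rose, and Hey2 (-0.36) did not pass. Dll4 and Heyl missed the threshold with cKO replicate 1 left out, as Dll4 did without wild-type replicate 2. The transcription factor and Notch genes can be expressed outside endothelium, and whole tissue does not show which cells held the RNA.

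**Figure D4:**
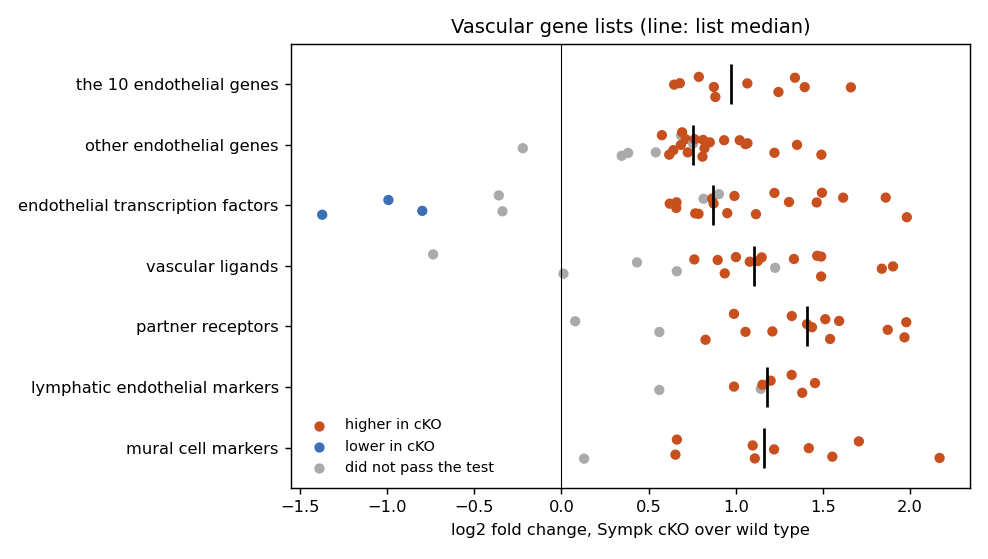
Log2 fold change, cKO over wild type, of the tested genes in 7 vascular gene lists, with a line at each list median and colour for the test result. Most points lie above 0, the partner receptors have the highest median (1.41), and the 3 called falls are all transcription factor genes.

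Genes used as markers of lymphatic vessels and of mural cells, the pericytes and smooth muscle cells around vessels, rose as well. Of 8 lymphatic gene IDs, 6 rose and 2 did not pass (median 1.18, and -0.16 on the Sertoli scale), and the symbol Ccl21a stood for 2 of the IDs. Flt4, which rose by 0.99, is counted both here and among the partner receptors. Prox1, the master regulator of lymphatic identity, rose from 2.67 and 1.89 to 5.58 and 6.93 TMM CPM (log2 fold change 1.45), and Mmrn1 by 1.32. The Ccl21a ID on an unplaced scaffold rose by 1.38, and the one on chromosome 4 did not pass (1.14, adjusted p = 0.069). Near-identical copies make these counts uncertain. Of 10 mural genes, 9 rose (median 1.16, and -0.17 on the Sertoli scale). Abcc9, a potassium channel subunit gene of pericytes, rose from 9.33 and 14.2 to 56.5 and 49.3 TMM CPM (2.17), the muscle filament gene Des by 1.71 and the pericyte receptor gene Pdgfrb by 1.55. Des and Abcc9 are also genes of skeletal muscle, whose markers differed between the libraries as given above. Tagln (0.13, adjusted p = 0.515) did not pass. Acta2 and Myh11, the genes with the highest levels in the mural list, can also be expressed by myoid cells around the tubules. Whole tissue does not tell these cells from vessel walls.

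Markers of other cell types gave a second reference for the rise. The mean log2 level of the 10 genes stood below that of the Sertoli markers by 3.13 and 3.34 in wild type and by 3.54 and 3.46 in cKO, so the difference was larger in both cKO libraries. Against mural markers, not all of them limited to vessels, it was below by 1.87 and 1.81 in wild type and 2.02 and 1.94 in cKO. The difference from macrophage markers was -0.43 and -0.56 in wild type and -0.59 and -0.98 in cKO. These genotypes did not overlap, but their nearest libraries lay closer together than the libraries within either genotype. Against Leydig markers, blood cell and platelet markers, and spermatogonial markers the genotypes overlapped. From wild type to cKO the mean difference changed by -0.30, -0.10 and 0.14 against these lists, in that order. The median log2 fold change was 1.26 for Leydig and 0.90 for spermatogonial markers. Scaling the libraries to the Sertoli markers in place of TMM gave a median of -0.35 for the 10 genes. On that scale none was called higher, Pecam1 (-0.54) and Egfl7 (-0.67) were called lower, and Robo4 (0.33), Plvap (0.07) and Cdh5 (0.02) kept a positive value. The median of all genes tested was -1.34 on that scale.

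**Figure D5:**
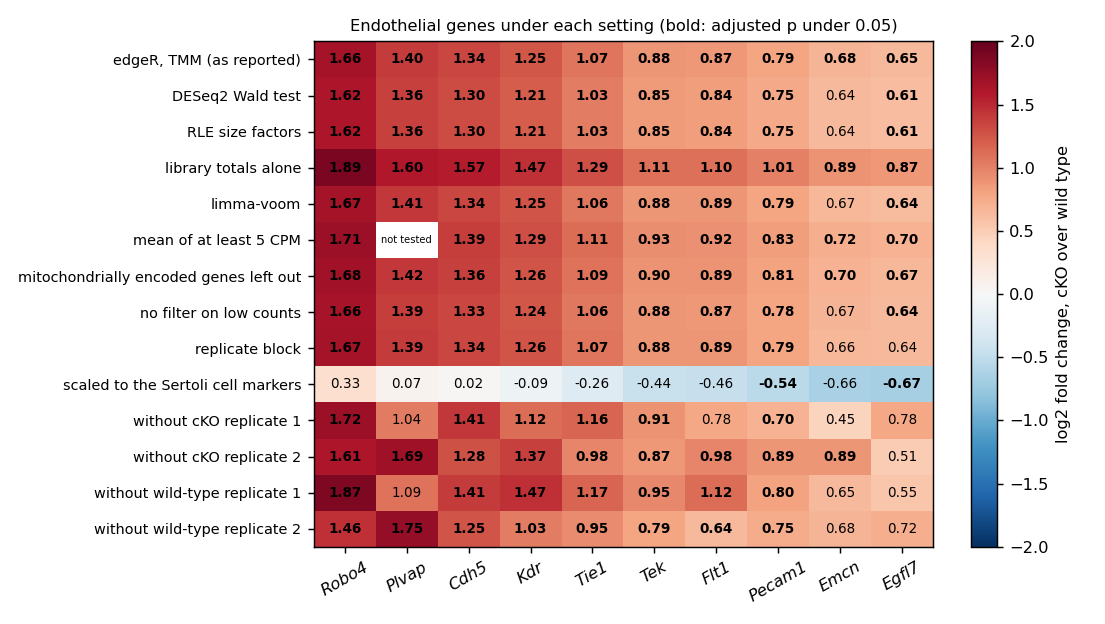
Log2 fold change of each endothelial gene under the reported setting and each alternative, with bold type for an adjusted p under 0.05. Robo4, Cdh5, Kdr, Tie1, Tek and Pecam1 stay positive and called in all rows but the Sertoli scale, while Emcn and Egfl7 lose their calls most often.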

How the data were processed

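The submitters' processing notes name HISAT2 and the build GRCm38. Which program and annotation produced the counts, and with what strand setting, is not given in the sources used here. Per gene, the authors deposited whole-number read counts with no normalization, and FPKM values (counts divided by gene length and library total), used here only for levels between genes and ratios.

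Counts were filtered with filterByExpr, scaled with TMM factors and tested across all genes with edgeR 4.0.16 in R 4.3.3 (quasi-likelihood test of genotype, two-sided, Benjamini-Hochberg adjustment, threshold 0.05). DESeq2 1.42.0, limma 3.58.1 (voom), other scalings and filters, a replicate block and each library left out were alternatives. The fits were also run on simulated counts in which few genes changed, as many up as down. Those counts do not test the scaling for changes as broad as these. Replicates of a group differed by far more than sampling noise (chi-square per gene 46.7 in wild type and 22.1 in cKO), so no pair was counted as 1 sample. A value of 1 CPM stands for 32.7 to 41.6 counts.

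Members, lists and tests were chosen with earlier results of these data known. All 10 members are named, and from each other vascular list up to 3 changed genes with the largest rise and 2 with the largest fall at a mean of at least 1 CPM; other names are given for their role or were chosen after their values were seen.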

Additional observations from a re-analysis of the deposited data

How the results depend on the processing

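The direction of all 10 genes held under each alternative except the Sertoli scale. There the median log2 fold change was -0.35, with 0 genes called higher and 2 lower, beside 296 higher and 14252 lower of all 21822 genes tested. Of the 25 other endothelial genes, 0 were called higher. The values below 0 on that scale were -0.094 for Kdr, -0.26 for Tie1, -0.44 for Tek, -0.46 for Flt1, -0.54 for Pecam1, -0.66 for Emcn and -0.67 for Egfl7. Library totals alone raised the median to 1.20 and the median of all genes from -0.02 to 0.20, and changed the share of higher genes among all calls from 46.0% to 54.4%. With a single library left out, 6 to 9 of the 10 genes and 10 to 17 of the 25 were called higher, 6 and 10 without cKO replicate 1, where the spread of the remaining single library was taken from the other group. Each fit with a library left out also called fewer of all genes higher than the reported setting did. The remaining alternatives called 8 to 10 of the 10 genes. Over all genes, library totals alone called 7651 of 21822 higher. A mean of at least 5 CPM called 4608 of 13299 higher, and no filter called 6124 of 33859. Plvap was not tested at a mean of at least 5 CPM. Scaling moves all genes of a library together by construction; for the other changes the cause was not tested.

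Same-numbered libraries did not deviate together (correlation -0.068 across all genes tested and -0.44 across the 10 genes), so the numbers were not taken as pairs. With the replicate block 8 of the 10 genes and 13 of the 25 were called higher, beside 5632 of all 21822 genes tested. Plvap had the fewest counts, 67 and 101 in wild type and 317 and 172 in cKO; the parts of depth and of spread between libraries in its error were not separated.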
